A study of Rattus norvegicus with 21 samples.

Results

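Pyramidal neurons and GABAergic neurons of the hippocampus, both grown together with glia, were set against each other gene by gene. The 2 groups are the 5 cells labelled pyramidal and the 6 cells labelled GABAergic among the neurons cultured with glial cells, 11 of the 21 cells in the series, and each column of values is 1 cell. All came from Wistar rats transgenic for a Venus reporter at the vesicular GABA transporter (VGAT), with hippocampi taken at embryonic day 18 and grown for 17 days in vitro. These cultures kept their glia: the antimitotic agents of the purified cultures and the oligodendrocyte-conditioned medium (OCM) were not listed for them. The remaining 10 cells, all GABAergic, were 5 from purified cultures with OCM and 5 from purified cultures without it. Each neuron was recorded with a patch electrode and its contents were then drawn into the electrode tip, so a value stands for 1 aspirate. The labels do not say how a cell was judged pyramidal, nor from which animal or culture it came. Each group is therefore 1 sample, no test was made, and ranges and SDs describe the spread between cells.

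Pyramidal neurons are the excitatory principal cells of the hippocampus. They load vesicles with glutamate through the vesicular glutamate transporter VGLUT1, the product of Slc17a7. GABAergic neurons make GABA with the glutamate decarboxylases encoded by Gad1 and Gad2 and load it through VGAT, encoded by Slc32a1. Interneurons arise from the ventral forebrain under transcription factors such as Dlx1, whereas pyramidal neurons arise from the dorsal forebrain under factors of the NeuroD family.

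Values are normalized counts, that is, reads per gene divided by 1 factor per cell. Recovered reads ranged from 1817671 to 22669537 in pyramidal cells and from 5587208 to 25160911 in GABAergic cells. With each cell thinned to 1817671 reads, 2456 to 4974 rows of the table were above 0 in pyramidal cells and 3614 to 8201 in GABAergic cells. Reads on the mitochondrial chromosome made up 1.87% to 20.9% in pyramidal cells and 1.25% to 10.8% in GABAergic cells. In all, 6571 genes with a symbol were above 0 in at least 3 of the 11 cells, and these are called measured. Differences below are pyramidal minus GABAergic, on the scale of the mean over cells of log2(normalized count + 1). On this scale a gene that is at 0 in a cell weighs heavily, and the size of a difference from a group at 0 depends on the added 1.

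Pyramidal cells 3 and 4 stood apart from the other 3 by transcripts of glial cells. Mbp, a myelin protein gene, stood at 278859 and 95386 in these cells, and was at 0 in cells 1, 2 and 5, against at most 959 in the GABAergic cells. In cell 3 Mbp was the highest of all genes with a symbol, and Apoe, an astrocyte and microglia lipoprotein gene, was at 59681. Of 25 pan-neuronal genes, 10 were above 0 in cell 3, 17 to 22 in the other pyramidal cells and 23 to 25 in the GABAergic cells. Cell 3 had no read of Slc17a7 or Neurod6, which goes against its label, but cell 4 had none of Neurod6 either. Neurod2 went with the label of cell 3, where it was higher than in any other cell compared. Sgk1 was at 9458 there, but some GABAergic cells of the purified cultures had reads of it too. Gad1, Gad2 and Slc32a1 were at 0 in cell 3, which does not tell a pyramidal neuron from a glial cell. Cell 4 carried Slc17a7 at 7887 beside its myelin transcripts. Counts of genes and medians of gene lists are therefore given for all 5 pyramidal cells and again for pyramidal cells 1, 2 and 5.

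**Figure D1:**
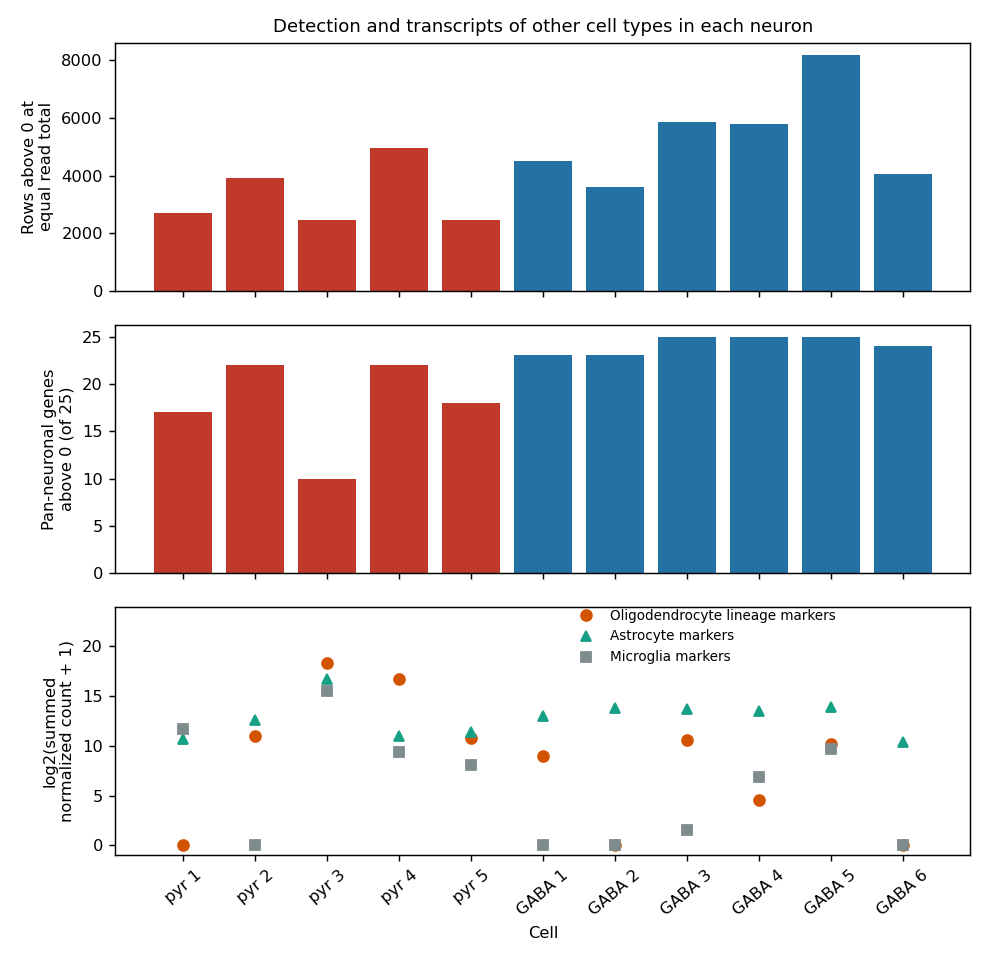
Detection and transcripts of other cell types in each of the 11 neurons, pyramidal cells left of GABAergic cells. Bars give the rows of the table above 0 after thinning to 1817671 reads (top) and the number of 25 pan-neuronal genes above 0 (middle); points give the log2 of the summed normalized count plus 1 of each marker list (bottom). Pyramidal cell 3 has the fewest pan-neuronal genes, 10, and pyramidal cells 3 and 4 have the highest oligodendrocyte sums, 329988 and 105975.

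The summed oligodendrocyte lineage markers reached 329988 in pyramidal cell 3 and 105975 in cell 4, and ranged from 0 to 2076 in pyramidal cells 1, 2 and 5 and from 0 to 1563 in GABAergic cells. Of 18 such markers with a symbol, 8 and 10 were above 0 in pyramidal cells 3 and 4, 0 to 3 in pyramidal cells 1, 2 and 5 and 0 to 7 in GABAergic cells, and the precursor markers Pdgfra and Cspg4 were at 0 in all 11. Cell 3 also had the highest sum of astrocyte markers, 109211, with 1618 to 6104 in pyramidal cells 1, 2 and 5 and 1338 to 15552 in GABAergic cells. Its microglia sum was 45267, against at most 800 in GABAergic cells, and pyramidal cell 1 had 3361. Of 15 microglia markers 8 were above 0 in cell 3, led by Cd68 at 15290 and Aif1 at 12526, while Cx3cr1, Itgam, Csf1r, P2ry12 and Ptprc were at 0 in every cell. The vascular sum was 288 or less in every cell. All 7 measured oligodendrocyte genes had a positive difference with 5 pyramidal cells (median 2.21), whereas the median without cells 3 and 4 was -0.97 with 3 of 7 positive. Of 11 measured astrocyte markers 6 had a positive difference with 5 cells (median 0.38, and -0.13 with upper-quartile scaling) and 2 without cells 3 and 4 (median -1.31). Clu, a secreted chaperone counted among the astrocyte markers, was at 0, 2017, 6769, 1043 and 0 in pyramidal cells and between 1170 and 13511, with a median of 9736, in GABAergic cells. The part of glial transcripts in the results below was not tested beyond leaving out cells 3 and 4.

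The genes of transmitter identity split the groups. Slc17a7 (chromosome 1, 101161252 to 101173169 in rn6) was at 11740, 10875, 0, 7887 and 18423 in pyramidal cells 1 to 5 and at 0 in all 6 GABAergic cells. Apart from cell 3 every pyramidal cell was high, and the other 10 GABAergic cells were at 0 as well. Over the groups this was 58846 reads (95% Poisson interval 58371.5 to 59323.4) of 49453612 in pyramidal cells and 0 of 88113651 in GABAergic cells. For 0 reads the upper limit of that interval is 3.69 reads. A floor of 3 reads over the GABAergic group is 0.0340 CPM, reads scaled to the group's total. With the floor of 3 reads over the GABAergic group, the pyramidal mean was at least 13817-fold higher. No molecular identifiers are described for these libraries, so the interval and the floors cover counting error only.

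Gad1 (chromosome 3, 56861431 to 56902137) was at 0 in all 5 pyramidal cells and between 6011 and 19503, with a median of 17419, in GABAergic cells. By the floor of 3 reads the pyramidal mean was at least 4148-fold lower. Gad2 (chromosome 17, 89171573 to 89234770) was at 924, 714, 0, 0 and 0 in pyramidal cells and between 6765 and 25558, with a median of 13340, in GABAergic cells. The groups did not overlap for Gad2 either, but pyramidal cells 1 and 2 held some reads of it, 746 over the group. Slc32a1 (chromosome 3, 155103150 to 155107815) was at 0 in every pyramidal cell and at 171 to 882, median 709, in GABAergic cells. Abat, which degrades GABA, overlapped, with 2006 in pyramidal cell 1, 0 in the other pyramidal cells and 279 to 1982 in GABAergic cells. All 6 measured genes of GABA synthesis and transport had a negative difference, with a median of -9.49, or -8.20 without pyramidal cells 3 and 4.

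**Figure D2:**
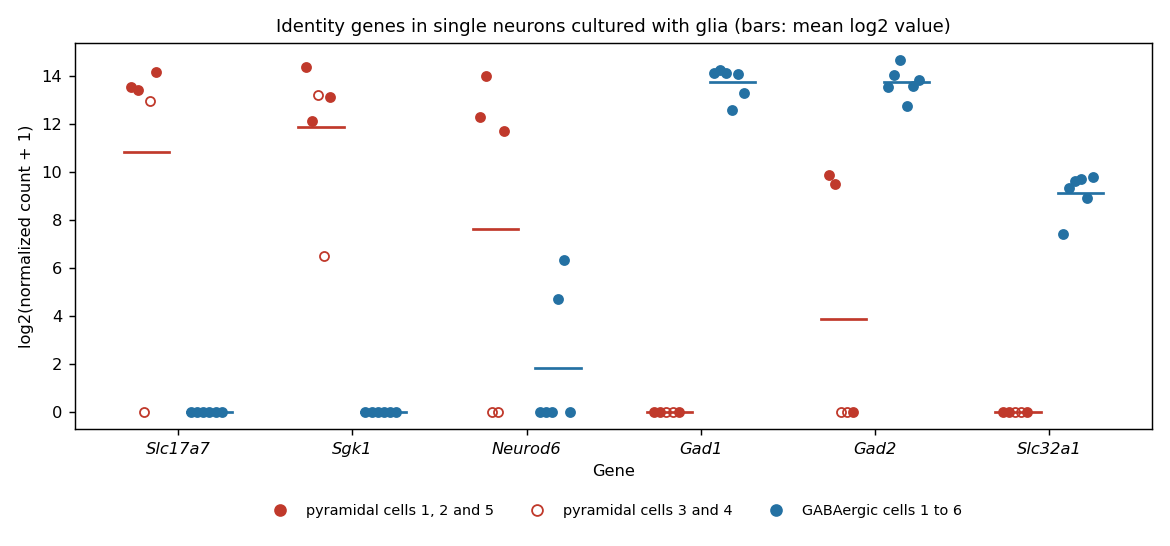
Identity genes in the 11 neurons cultured with glia, pyramidal cells left of GABAergic cells for each gene. Each point is log2(normalized count + 1) of 1 cell, bars are group means, and open circles are pyramidal cells 3 and 4. Slc17a7 and Sgk1 are at 0 in the 6 GABAergic cells, and Gad1 and Slc32a1 are at 0 in the 5 pyramidal cells.

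Sgk1 (chromosome 1, 24185454 to 24193567), a serum- and glucocorticoid-regulated kinase gene, was at 20760, 4376, 9458, 89.8 and 8937 in pyramidal cells and at 0 in all 6 GABAergic cells. Every pyramidal cell had it, cell 4 at a level far below the other 4, and the group mean was at least 12319-fold higher by the same floor. It was no strict mark of the class across the series, since 5 of the other 10 GABAergic cells had reads of it, the highest at 2523.

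The region before the start is shown for Slc17a7, Neurod6 and Gad1. Only Gad1 separated every pyramidal cell from every GABAergic cell, since Slc17a7 was at 0 in pyramidal cell 3. Neurod6, which encodes a NeuroD-family factor of pyramidal neurons, was read in pyramidal cells 1, 2 and 5 at 5027, 16189 and 3349. It was at 0 in cells 3 and 4, against at most 80.0 in GABAergic cells. The windows are the 250 bases before the gene start in RefSeq's table for assembly GRCr8, written 5′ to 3′ on the gene's strand, with matches to either motif in capitals. The motifs searched on both strands were TGACGTCA, the cAMP-response element (CRE), and CAGATG, an E-box sequence of the kind that NeuroD factors bind. They have different letters and no match overlaps another here. The CRE letters are in 1.59% of 33469 such windows and the E-box letters in 14.0%, and in 3.49% and 8.41% of the windows of measured genes.
Slc17a7, chr1:104785955-104786204, plus strand: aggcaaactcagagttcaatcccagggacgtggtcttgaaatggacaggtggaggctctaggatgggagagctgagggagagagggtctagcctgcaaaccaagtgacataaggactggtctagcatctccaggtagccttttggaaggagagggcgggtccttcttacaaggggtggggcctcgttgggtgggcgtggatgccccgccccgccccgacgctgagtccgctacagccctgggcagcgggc
Neurod6, chr4:86180156-86180405, minus strand: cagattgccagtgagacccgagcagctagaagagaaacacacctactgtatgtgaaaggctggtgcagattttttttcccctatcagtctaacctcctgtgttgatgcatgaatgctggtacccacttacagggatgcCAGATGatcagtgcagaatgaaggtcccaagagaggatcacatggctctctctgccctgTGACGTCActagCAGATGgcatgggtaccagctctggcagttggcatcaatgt
Gad1, chr3:75777202-75777451, plus strand: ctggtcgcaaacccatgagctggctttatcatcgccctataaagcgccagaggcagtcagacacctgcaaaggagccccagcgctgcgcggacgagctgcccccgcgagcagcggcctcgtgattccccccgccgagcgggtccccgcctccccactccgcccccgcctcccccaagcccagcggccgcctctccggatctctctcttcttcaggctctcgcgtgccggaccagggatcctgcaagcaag

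The Neurod6 window holds 1 CRE match and 2 E-box matches, and those of Slc17a7 and Gad1 hold neither set of letters. These matches describe the windows and say nothing of binding.

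Across all measured genes the differences leaned to the negative side. The median was -2.05 with 1487 genes above 0, and -2.46 with 1641 genes above 0 without pyramidal cells 3 and 4. It was -2.16 after scaling every cell to one total and -2.62 after scaling to one upper quartile, and lists are read against it. No read was found in any pyramidal cell for 816 measured genes and in any GABAergic cell for 27. The 816 passed the filter of 3 cells through the 6 GABAergic cells alone, and the 27 through the 5 pyramidal cells alone. A larger group with more rows above 0 passes more genes in this way, so the 2 counts are not on equal terms. In 15 of 6571 genes (0.228%) every pyramidal cell lay above every GABAergic cell with a difference of at least 1, and in 120 genes (1.83%) every pyramidal cell lay below. Without pyramidal cells 3 and 4 the numbers were 95 (1.45%) and 260 (3.96%), and these included all 15 of the higher and 117 of the lower genes. These are called genes without overlap.

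Of the 15 genes higher in every pyramidal cell, Sgk1, Cd24 and Ctxn1 had the widest gaps between groups. Cd24 (chromosome 20, 48335540 to 48340846), a cell-surface glycoprotein gene, was at 201, 307, 8566, 1147 and 1758 in pyramidal cells and at most 2.83 in GABAergic cells, with a difference of 9.47. Its highest value was that of cell 3. Ctxn1 (chromosome 12, 2534212 to 2535822), a small membrane protein gene of cortical neurons, was at 3716, 3786, 3171, 3276 and 2387 in pyramidal cells and at 0 to 771, median 78.9, in GABAergic cells. It was the most even of the 15 across pyramidal cells, with a mean of 3267 ± 560 (SD, 5 cells), against 215 ± 307 (SD, 6 cells) in GABAergic cells. Among the other 12 were Hn1, Chmp2a, Aurkaip1, Sec61b, Sh3bgrl3, Mrpl27, Schip1, Sdcbp, Eef1a1, Ptms and Rpsa, with differences between 1.46 for Ptms and 5.96 for Sec61b. Chmp2a belongs to the membrane-remodelling ESCRT machinery, Sec61b to the endoplasmic reticulum translocon, and Eef1a1 and Rpsa to the translation apparatus. With upper-quartile scaling the groups overlapped for these 12, and Sgk1, Cd24 and Ctxn1 remained without overlap. Eef1a1 and Rpsa belong to families with near-identical copies in the genome, so their counts are uncertain.

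Among the 120 genes lower in every pyramidal cell, 49 had no read in any pyramidal cell and so were measured through GABAergic cells alone. Dner (chromosome 9, 91966460 to 92065402), a Notch-pathway transmembrane protein gene, was at 0 in all 5 pyramidal cells and at 3426 to 8041, median 5286, in GABAergic cells. Cntnap4 (chromosome 19, 44817727 to 45118133), a neurexin-related adhesion gene of interneurons, was at 0 in pyramidal cells and at 2279 to 7018, median 2994, in GABAergic cells. Spock3 (chromosome 16, 28372074 to 28716354), a proteoglycan gene, had 2.96 in pyramidal cell 1 and 0 in the remaining 4, against 5434 to 21382, median 7944, in GABAergic cells. Vstm2a, a secreted immunoglobulin-domain protein gene, completed the 4 of 16 measured interneuron surface and synaptic genes that were without overlap, all lower, and the list's median was -6.79, or -7.48 without pyramidal cells 3 and 4. Gria4, Nxph1, Kcnip1 and Erbb4 had no read in any pyramidal cell too, but overlapped because 1 GABAergic cell was at 0 for each. Slit2, an axon guidance gene, was the 1 member of 16 with a positive difference, 3.28, with 3617, 248, 0, 2141 and 0 in pyramidal cells and at most 303 in GABAergic cells.

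**Figure D3:**
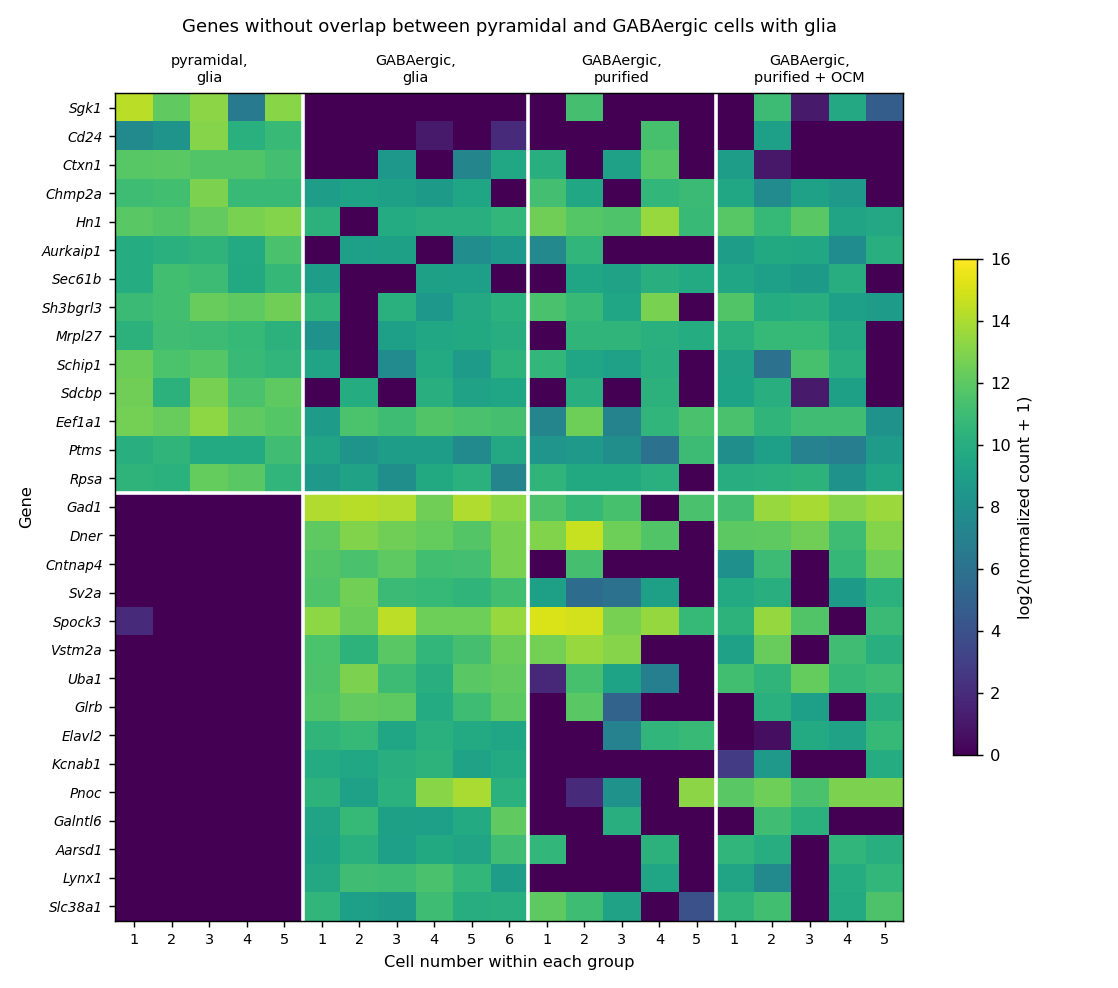
The genes higher (upper block, 14 of 15) and the 15 genes lower with the widest gap (lower block) in every pyramidal cell than in every GABAergic cell grown with glia, drawn as log2(normalized count + 1) per cell. Columns run from pyramidal cells through GABAergic cells with glia to the 10 other GABAergic cells, which did not enter the choice of genes. Gad1 is above 0 in 9 of those 10 cells, and Sgk1 is above 0 in 5 of them.

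Interneuron transcription factors were low or absent in pyramidal cells. All 9 measured members had a negative difference (median -4.60, and -4.44 without cells 3 and 4). Dlx1 was at 5.90 in pyramidal cell 2 and 0 in the other 4, against 0 to 813, median 63.4, in GABAergic cells. Sp9 was at 0 in all pyramidal cells and at 0 to 766, median 35.4, in GABAergic cells, and Maf was at 0 in all pyramidal cells and at 0 to 115, median 59.6, in GABAergic cells. These 3 were each at 0 in at least 1 GABAergic cell and so overlapped. Peptide and subtype genes varied from cell to cell, and pyramidal cell 4 carried several of them. Sst, the somatostatin gene, was at 49864 in GABAergic cell 1 and at 0 in cell 6, and Npy, the neuropeptide Y gene, was at 39192 in GABAergic cell 5 and at 0 in cells 2 and 4. Pyramidal cell 4 had Npy at 3712, Cck, the cholecystokinin gene, at 1474 and Lamp5 at 1123. Over the list its mean of log2(normalized count + 1) was 5.54, above 4 of the 6 GABAergic cells, and the other pyramidal cells had 0 to 1.82. Pnoc (chromosome 15, 48805873 to 48832940), the prepronociceptin gene, was the 1 member of 9 without overlap, at 0 in all pyramidal cells and at 558 to 16083, median 1247, in GABAergic cells. The list's median was -3.91, or -4.67 without pyramidal cells 3 and 4.

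Pyramidal transcription factors leaned the other way, but the cells of the 2 groups overlapped. Of 14 measured members 11 had a positive difference (median 2.10), and 12 without cells 3 and 4 (median 2.69), against medians of -2.05 and -2.46 over all measured genes. None was without overlap with 5 cells, and Neurod6 was with cells 1, 2 and 5. Bhlhe22 was at 1804, 283, 46.9, 2798 and 0 in pyramidal cells and at most 6.40 in GABAergic cells. Neurod2 was at 452, 0, 1770, 135 and 0 in pyramidal cells and at most 1.23 in GABAergic cells, and here cell 3 was the highest. Each pyramidal cell was at 0 for some members that others carried. Not all members leaned that way, and Id2, a helix-loop-helix inhibitor gene, was at 0, 9472, 0, 0 and 1312 in pyramidal cells and at 0 to 3121, median 736, in GABAergic cells. By the mean of log2(normalized count + 1) over the list, pyramidal cells stood at 5.92, 4.88, 1.51, 4.90 and 4.87 and GABAergic cells at 0.61 to 5.20, with GABAergic cell 5 above 4 of the 5 pyramidal cells. With the median over cells in place of the mean, the list's median difference was 0.

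Other genes of glutamate loading and supply mostly had a negative difference, as did most measured genes. Of 8 measured members, Slc17a7 among them, 7 had a negative difference (median -3.34), and 6 without cells 3 and 4 (median -3.28). Of all 6571 measured genes 5084 had a negative difference, and 4930 without cells 3 and 4. Slc38a1, a glutamine transporter gene, was without overlap, at 0 in all pyramidal cells and at 447 to 2128, median 1035, in GABAergic cells. Slc30a3, which encodes the zinc transporter of glutamatergic vesicles, had 2707 in pyramidal cell 2 and 0 in the remaining 4, against 1140 to 6563, median 2581, in GABAergic cells. Camk2a, a kinase gene widely used as a marker of pyramidal neurons, had 88.4 in pyramidal cell 5, 0 in the other 4 pyramidal cells, and at most 320 in GABAergic cells. Of 5 measured markers of hippocampal subfields none was without overlap and 1 had a positive difference (median -2.08, and -2.71 without cells 3 and 4).

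Pyramidal signalling and spine genes depended on which cells were taken. With all 5 pyramidal cells 10 of 21 measured members had a positive difference (median -0.25), and Cd24 and Ctxn1 were without overlap. Without cells 3 and 4, 15 of 21 had a positive difference (median 1.69), and Mal2, Hpca, Ppp3ca and Chn1 joined them. Leaving out cell 3 alone gave a median of 1.30, and leaving out cell 4 alone -0.14. Hpca, the calcium sensor hippocalcin, was at 33872, 4058, 0, 2088 and 18118 in pyramidal cells and at 0 to 3203, median 0, in GABAergic cells. Mal2, a membrane-trafficking proteolipid gene, was at 14193, 5320, 985, 0 and 12714 in pyramidal cells and at most 2639 in GABAergic cells. Ppp3ca, the catalytic subunit of calcineurin, was at 5564, 4016, 1352, 3227 and 6418 in pyramidal cells and at 96.6 to 3072, median 834, in GABAergic cells. In each, cell 3 or cell 4 was the lowest of the pyramidal cells, and cells 1, 2 and 5 lay above all GABAergic cells.

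Further genes entered the higher group when cells 3 and 4 were left out. Rgs4 (chromosome 13, 88054817 to 88061110), a regulator of G-protein signalling, was at 47742, 30644, 0, 21099 and 38980 in pyramidal cells and at 0 to 2600, median 338, in GABAergic cells. Of the pyramidal cells only cell 3 lacked it, and the difference was 6.33 with all cells and 9.55 without cells 3 and 4. Chrm4, a muscarinic acetylcholine receptor gene, was at 832, 1415, 0, 427 and 1234 in pyramidal cells and at most 166 in GABAergic cells. Vsnl1, the calcium sensor visinin-like 1, was at 23951, 23951, 0, 5111 and 36430 in pyramidal cells and at 3563 to 14802, median 13509, in GABAergic cells, so that its difference was -1.97 with all cells and 1.46 without cells 3 and 4. Dscaml1, Spata2L, Ccnl1, RGD1305110, Ccar1, Ccsap and Srcin1 were also among the 15 with the widest gap in that comparison, with differences between 6.64 for Srcin1 and 11.24 for Dscaml1. For RGD1305110 and Srcin1 the sign turned among the cells whose titles begin with P, at -1.58 and -0.92.

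Activity-regulated genes were mostly positive and uneven. Of 17 measured members 13 had a positive difference (median 1.64), and 14 without cells 3 and 4 (median 1.78). The median was 0.39 without pyramidal cell 2 and 0.86 without pyramidal cell 4, and 0.53 among the cells whose titles begin with P. Egr1, an immediate-early transcription factor gene, was at 0, 6700, 0, 3125 and 49853 in pyramidal cells and at 0 to 1272, median 0, in GABAergic cells. Fos was at 3003, 6664, 0, 3683 and 3706 in pyramidal cells and at 0 to 4286, median 2149, in GABAergic cells, so it overlapped widely. Dusp6, a phosphatase gene of the ERK pathway, was at 3453, 3279, 20.5, 1028 and 4428 in pyramidal cells and at most 1610 in GABAergic cells, and it was without overlap in cells 1, 2 and 5. Nr4a2 was too, at 26.6, 59.0 and 315 in those cells and at most 1.07 in GABAergic cells. Vgf (chromosome 12, 22677601 to 22680630), a secreted neuropeptide precursor gene, went the other way and was without overlap with all cells, at 1944, 377, 8.80, 168 and 0 in pyramidal cells and at 2684 to 8545, median 5478, in GABAergic cells. The cells were recorded before aspiration, and the part of recording was not tested.

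Other corticosteroid-responsive genes were mixed. Of 14 measured members 8 had a positive difference (median 0.75), and 9 without cells 3 and 4 (median 0.79). The median ranged from 0.19 to 1.46 with 1 cell left out, and its sign turned, at -1.56, among the cells whose titles begin with P. Sgk1 was the 1 higher and Tsc22d3, the glucocorticoid-induced leucine zipper gene, the 1 lower without overlap. Tsc22d3 was at 0, 0, 645, 1004 and 0 in pyramidal cells and at 1365 to 5311, median 2341, in GABAergic cells, with a difference of -7.42. Fkbp5, which encodes a chaperone of the glucocorticoid receptor, had 1456 in pyramidal cell 5, 0 in the remaining 4, and at most 205 in GABAergic cells. Nfkbia, the gene of an inhibitor of NF-kappaB, was at 0, 849, 5.87, 332 and 3290 in pyramidal cells and at 0 in all 16 GABAergic cells of the series.

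Receptor genes were mostly lower or overlapping in pyramidal cells, but so were most measured genes. Of all 6571 measured genes 5084 had a negative difference (median -2.05, and -2.46 without cells 3 and 4). Of these 6571, 1.83% were lower without overlap. Of 15 measured genes of GABA receptors and their anchor, 14 had a negative difference (median -4.82, and -4.56 without cells 3 and 4). Gabbr1, a subunit of the GABA-B receptor, was at 5.91, 0, 0, 201 and 0 in pyramidal cells and at 260 to 1755, median 452, in GABAergic cells. Glrb, the beta subunit of the glycine receptor, was at 0 in pyramidal cells and at 918 to 4547, median 3603, in GABAergic cells. Both were among the 3 without overlap, and Gabra5 overlapped with 10585 in pyramidal cell 1. None of 13 measured AMPA receptor genes and partners was without overlap (median -3.18, and -2.32 without cells 3 and 4). Gria2, the subunit that makes AMPA receptors impermeable to calcium, was at 7097, 3910, 0, 3756 and 0 in pyramidal cells and at 2103 to 6732, median 2708, in GABAergic cells. Among 8 measured NMDA, kainate and metabotropic receptor genes and partners (median -3.12, and -3.41 without cells 3 and 4), Neto1, an auxiliary subunit gene of kainate receptors, was without overlap, at 2.96 in pyramidal cell 1 and 0 in the rest, against 701 to 6656, median 1909, in GABAergic cells. Of 11 measured postsynaptic scaffold genes none was without overlap, and the median was -0.96, or -1.20 without cells 3 and 4.

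**Figure D4:**
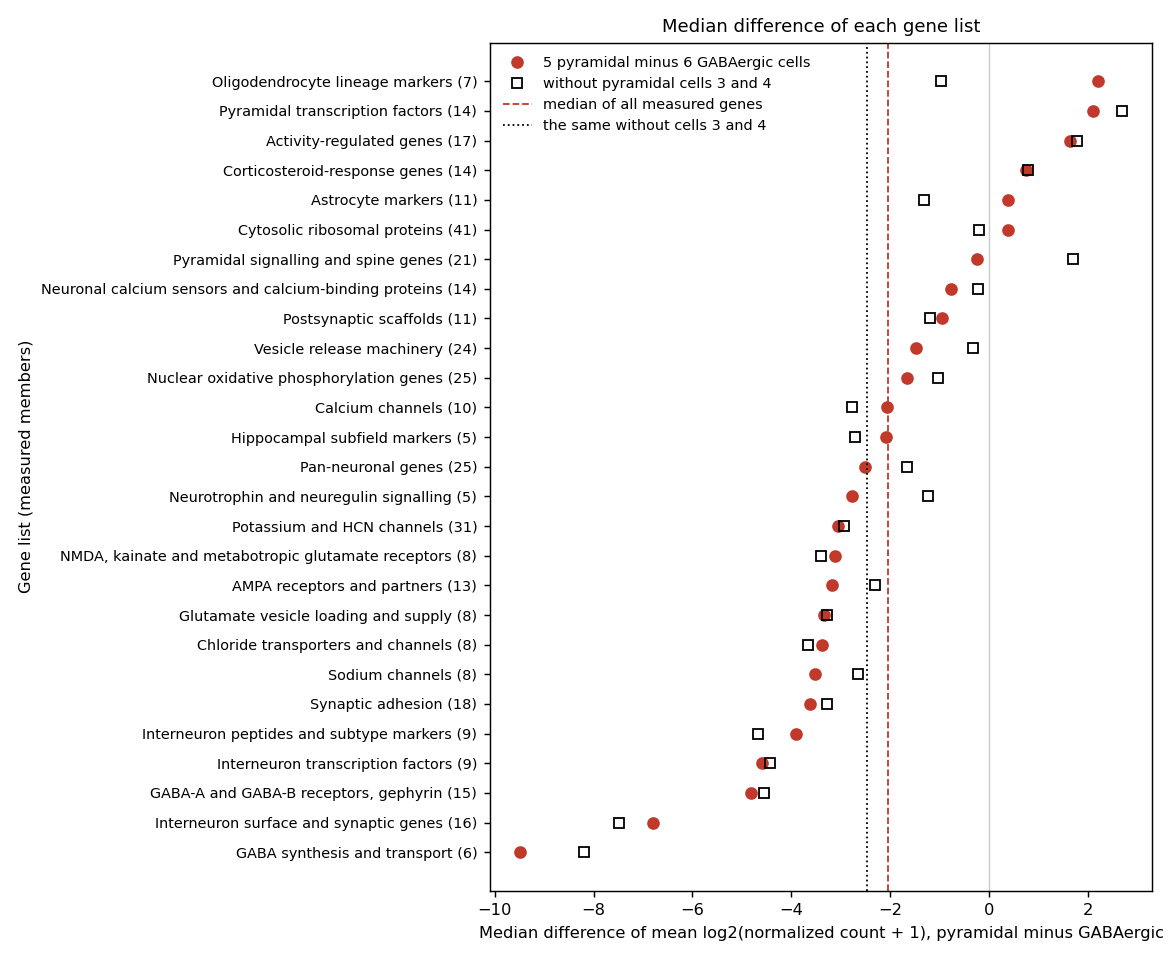
Median difference, pyramidal minus GABAergic, of each gene list with at least 3 measured members, with the number of measured members in brackets. Red points use 5 pyramidal cells, open squares use pyramidal cells 1, 2 and 5, and the vertical lines are the medians of all measured genes, -2.05 and -2.46. GABA synthesis and transport lies lowest at -9.49, and the oligodendrocyte list moves from the right of 0 to its left when cells 3 and 4 are left out.

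Most presynaptic genes overlapped between groups, as did most measured genes, and a few did not. Of 24 measured genes of vesicle release 20 had a negative difference (median -1.49), and 14 without cells 3 and 4 (median -0.33). Over all 6571 measured genes 5084 (median -2.05) and 4930 (median -2.46) did, so both list medians lay above the all-gene ones. Lower without overlap were 2 of the 24, and 3 without cells 3 and 4, beside 1.83% and 3.96% of all measured genes. Snap25, a core fusion protein gene, was at 32460, 25773, 3590, 15310 and 19057 in pyramidal cells and at 26926 to 44072, median 31736, in GABAergic cells. Vamp2, its vesicular partner, was at 19646, 17717, 1968, 13632 and 8428 in pyramidal cells and at 6256 to 19786, median 14430, in GABAergic cells. Both overlapped, with cell 3 the lowest. Cplx1, a complexin gene, was without overlap, at 1285, 4181, 0, 1545 and 0 in pyramidal cells and at 7964 to 23170, median 18310, in GABAergic cells. Sv2a (chromosome 2, 198321182 to 198336559), a synaptic vesicle glycoprotein gene, was at 0 in all pyramidal cells and at 1438 to 6101, median 2085, in GABAergic cells. Vamp1 was at 949 in pyramidal cell 4 and 0 in the other 4, against 578 to 1784, median 1340, in GABAergic cells, and was without overlap once cells 3 and 4 were left out.

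Of 18 measured synaptic adhesion genes 16 had a negative difference (median -3.62), and 15 without cells 3 and 4 (median -3.27). Over all 6571 measured genes 5084 (median -2.05) and 4930 (median -2.46) did. Lower without overlap were 2 of the 18, beside 1.83% of all measured genes. Nrxn3, a presynaptic neurexin gene, was at 0, 35.4, 0, 467 and 0 in pyramidal cells and at 1112 to 10647, median 3731, in GABAergic cells. Slitrk1 was the other gene without overlap, at 1236, 714, 0, 389 and 12.4 in pyramidal cells and at 1370 to 3119, median 1685, in GABAergic cells. Cadm1, a SynCAM adhesion gene, ran the other way in cells 1, 2 and 5, at 1865, 7655 and 2741, with 0 in cell 3 and 2596 in cell 4, against at most 478 in GABAergic cells.

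Among channel genes 1 of 8 measured sodium channel genes and 2 of 31 measured potassium and HCN channel genes were lower without overlap, beside 1.83% of all measured genes. In the sodium channel genes (median -3.53, and -2.65 without cells 3 and 4, with 2 lower), Scn1a, the channel Nav1.1 of fast-spiking interneurons, was at 170 in pyramidal cell 1 and 0 in the other 4, against 1157 to 2266, median 1634, in GABAergic cells. In the potassium and HCN channel genes (median -3.06, and -2.94 without cells 3 and 4), Kcnab1, a beta subunit gene, was at 0 in all pyramidal cells and at 596 to 1273, median 902, in GABAergic cells. Hcn3 was at 13.7 in pyramidal cell 4 and 0 in the other 4, against 19.9 to 5296, median 949, in GABAergic cells, so its gap was narrow. Kcna4, an A-type potassium channel gene, was at 4474, 6222, 0, 0 and 1400 in pyramidal cells and at most 942 in GABAergic cells. Cacna2d3, a calcium channel accessory subunit gene, was at 6436, 5107, 0, 1452 and 6626 in pyramidal cells and at 0 to 3236, median 1236, in GABAergic cells. Both were without overlap only in pyramidal cells 1, 2 and 5. None of 8 measured chloride transporter and channel genes was without overlap, and all 8 had a negative difference (median -3.38, and -3.66 without cells 3 and 4).

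Genes common to neurons were in part lower in pyramidal cells. Of 25 measured pan-neuronal genes 24 had a negative difference (median -2.50), and 20 without cells 3 and 4 (median -1.66), above the all-gene median of -2.46 there. Nefm, a neurofilament gene, was at 0, 59.0, 0, 129 and 0 in pyramidal cells and at 844 to 8814, median 4979, in GABAergic cells. Elavl2, an RNA-binding protein gene, was at 0 in all pyramidal cells and at 671 to 1705, median 1020, in GABAergic cells. Nefh was without overlap only in cells 1, 2 and 5. At an equal read total pyramidal cells had 2456 to 4974 rows above 0 and GABAergic cells 3614 to 8201, ranges that overlap, and the part of detection in these differences was not tested.

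Genes above 0 in all 11 cells keep such zeros out. There were 358 of them, chosen after seeing the data. Their median difference was -0.015 with the deposited scaling, with 177 above 0 (0.12 and 195 without pyramidal cells 3 and 4). It was -0.22 with 149 above 0 after scaling to one total, and -0.94 with 59 after scaling to one upper quartile. A median near 0 here therefore depends on the scaling. With the deposited scaling every pyramidal cell was higher in 4 of the 358 genes (1.12%) and lower in 8 (2.23%). Among the 4 were Eef1a1, Rpsa and Ptms, and among the 8 were Bcat1, Ghitm, Tecr, Bsg, Atp5g3, Atp6ap2 and the merged row Snrpn // Snurf. Rpsa, Ptms and Atp5g3 overlapped with either other scaling, and Eef1a1, Bsg and Snrpn // Snurf with upper-quartile scaling. Bcat1, Ghitm, Tecr and Atp6ap2 stayed without overlap with both. Bcat1, a branched-chain aminotransferase gene, was at 17667, 6228, 2870, 10396 and 5294 in pyramidal cells and at 24378 to 35419, median 30036, in GABAergic cells. Tecr, an enzyme of very-long-chain fatty acid synthesis, was at 6323, 5856, 868, 3979 and 1670 in pyramidal cells and at 8833 to 11442, median 10263, in GABAergic cells. The GABAergic cells were close together for both, and pyramidal cell 3 was the lowest cell for both. Atp6ap2 alone of the 8 overlapped without cells 3 and 4.

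The list of nuclear oxidative phosphorylation genes held 12 that were above 0 in all 11 cells, and all 12 had a negative difference (median -0.67, and -0.74 without cells 3 and 4). The list took only part of that family. Among all 44 genes above 0 in all 11 cells whose symbols name such a subunit, a set taken after seeing the data, 31 had a negative and 13 a positive difference (median -0.32, and -0.54 without cells 3 and 4). Of these 44, Atp5g3, a subunit gene of ATP synthase, was the 1 without overlap with the deposited scaling. Ndufb2, a complex I subunit gene, had a difference of 1.14. Of the listed genes Ndufa4 was at 7633, 12008, 10289, 12433 and 6209 in pyramidal cells and at 14033 to 19989, median 17000, in GABAergic cells, with a difference of -0.85. Of 18 listed cytosolic ribosomal protein genes above 0 in all 11 cells, 16 had a positive difference with the deposited scaling (median 0.85) and 15 with scaling to one total (median 0.64), but 7 with upper-quartile scaling (median -0.08). Among all 26 such genes by symbol 23 had a positive difference with the deposited scaling (median 0.85, and 0.47 without cells 3 and 4). The offset from the median of the 358 genes was 0.87, 0.86 and 0.86 for the listed ribosomal genes with these scalings in turn. For the listed oxidative phosphorylation genes it was -0.65, -0.66 and -0.66. A single factor per cell shifts all these genes nearly alike, so the offsets could hardly move and do not test the scaling. Without cells 3 and 4 the offsets were 0.21 and -0.86. Rpl7 had the largest difference of the 18, 2.44, whereas Rpl5, which was not above 0 in all 11 cells, was lower in every pyramidal cell, at 0, 23.6, 1.47, 97.9 and 27.9, against 262 to 2971, median 968, in GABAergic cells. Of all 41 measured ribosomal protein genes on the list, 24 had a positive difference (median 0.38), and 17 without cells 3 and 4 (median -0.22). The medians of all measured genes were -2.05 and -2.46. By the mean of log2(normalized count + 1) over the 41, pyramidal cells stood at 6.81, 9.38, 9.64, 9.50 and 6.62. GABAergic cells stood at 7.41 to 9.07, so pyramidal cells 1 and 5 lay below all of them. Ribosomal protein genes have many processed copies, so single members are uncertain.

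**Figure D5:**
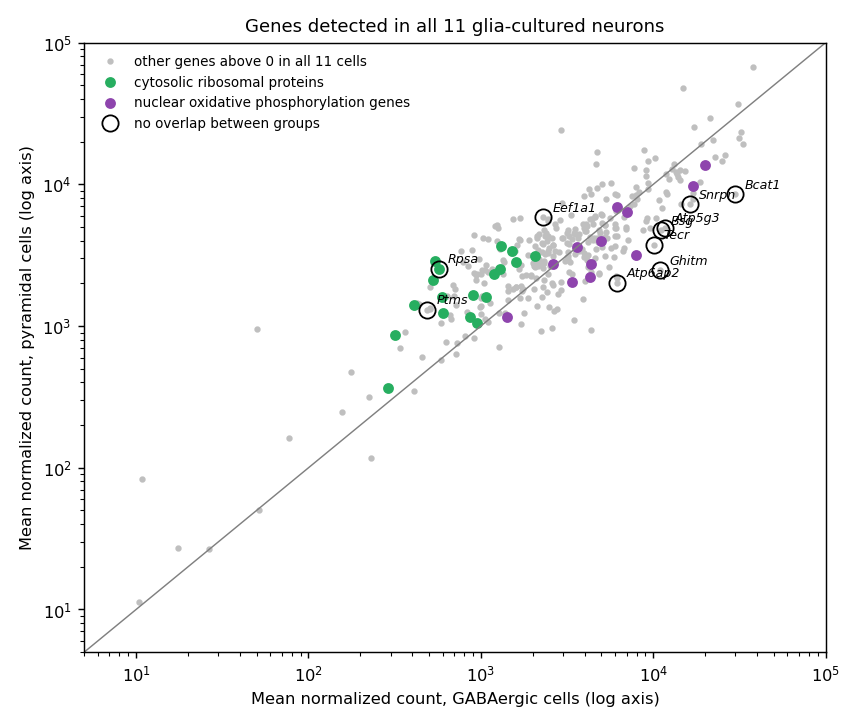
Mean normalized count in 5 pyramidal cells (vertical, log axis) against 6 GABAergic cells (horizontal, log axis) for 355 of the 358 genes above 0 in all 11 cells; the line marks equal means. Circled genes are 3 higher and 7 lower ones without overlap, green points are 18 listed cytosolic ribosomal protein genes and purple points are 12 listed nuclear oxidative phosphorylation genes. Bcat1 lies farthest to the right of the circled genes, at 8491 in pyramidal and 29880 in GABAergic cells.

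Pyramidal cells were less alike among themselves than GABAergic cells were. Over the measured genes on the log2 scale, Pearson correlations were 0.21 to 0.30 between pyramidal cells, 0.33 to 0.45 between GABAergic cells and 0.16 to 0.31 between the groups. Over the 358 genes above 0 in all cells they were 0.23 to 0.59 between pyramidal cells, 0.67 to 0.86 between GABAergic cells and 0.29 to 0.73 between the groups. Over the same 358 genes and without cells 3 and 4 they were 0.44 to 0.47 between pyramidal cells and 0.53 to 0.65 between the groups. These describe pairs of cells that share depth and detection and carry no test.

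The 10 GABAergic cells without glia did not enter the comparison and give each gene a second set of cells. Of the 120 genes lower in every pyramidal cell, all 10 lay above the highest pyramidal cell for 8, among them Slc32a1, Neto1, Nefm, Nap1l5, Nop56, Pfn2 and Tecr, and a median of 6 cells did so per gene. Gad1 was above 0 in 9 of 10, Dner in 9, Cntnap4 in 5 and Kcnab1 in 3. Of the 15 higher genes none had all 10 cells below the lowest pyramidal cell, and 10 had at least 8. Of the 95 genes higher in pyramidal cells 1, 2 and 5, all 10 cells lay below for 51, among them Slc17a7, Sgk1, Neurod6, Hpca, Rgs4, Chrm4, Dusp6, Kcna4, Cadm1 and Vsnl1, and of the 260 lower genes all 10 lay above for 18. Chrm4 and Dusp6 had no read in any of the 10 cells. A cell at 0 for a gene lies below by default and cannot lie above, which raises the counts for higher genes and reduces those for lower genes. Genes with a symbol above 0 numbered 2231 to 3572 in purified cells without OCM and 3503 to 5515 with it. In GABAergic cells with glia they numbered 3321 to 7587. The same count over all measured genes was not made.

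The letters that begin the sample titles are not explained in the labels. P and S occur in both groups, whereas the titles of GABAergic cells 1 and 2 begin with ech, which no pyramidal title does. Among cells whose titles begin with P, 3 pyramidal and 3 GABAergic, the median over measured genes was -2.98, and among those whose titles begin with S, 2 pyramidal and 1 GABAergic, it was 0. The pyramidal P cells are cells 3, 4 and 5. Genes of GABA synthesis and transport had a median of -11.69 in P cells and -9.61 in S cells, and pyramidal transcription factors 0.19 and 5.34.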

How the data were processed

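Per the labels' protocols, RNA of patched single neurons was amplified with SMART-Seq v4, and Nextera XT libraries were read from both ends on a NextSeq500. The submitters' processing notes list rn6 as the build and STAR 2.4.0, SAMtools, Picard, FastQC and DESeq2 as tools. Counter, gene annotation and strandedness were not given in the sources used here, so overlapping and antisense genes cannot be told apart.

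Each deposited value is a signal for 1 gene in 1 cell, normalized with DESeq2 per the authors' file name. Within each cell the values were whole multiples of 1 step (100% of values, within 0.05), which gave back whole reads. No count test was made on them, because each group is 1 sample. The table has 34976 rows, 18376 of them without a symbol, and 0 columns of values without a sample. For 16245 symbols the row with the highest mean was kept, leaving out 355 rows. Of these symbols 14108 are current and 1739 are synonyms in a RefSeq gene table of GRCr8, used for names and promoter windows only. Windows matched 11 of 15 higher and 93 of 120 lower genes, and 5088 of 6571 measured ones.

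Group means of log2(value + 1) were subtracted, for genes read in at least 3 of 11 cells. Named are the 4 markers, members of 29 gene lists, and per direction the 15 genes without overlap, with a mean of at least 100 in the higher group, that had the widest gap; some of these are not reported here. The members and lists were chosen with earlier results of these data known. Alternatives were pseudocounts of 10 and 0.1, other scalings and filters, thinning, medians over cells, ratios of means, leaving out cells and cells of 1 title letter. The steps were tested on simulated data. Versions were matplotlib 3.10.9, scipy 1.17.1, pandas 2.3.3, numpy 2.4.6 and Python 3.11.15.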

Additional observations from a re-analysis of the deposited data

Results flagged for a closer look

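Pyramidal cell 3 lay far below the other pyramidal cells in 2 list scores, the score being the mean of log2(normalized count + 1) over a list's measured members. For pyramidal transcription factors it had 1.51 and the next cell 4.87, and for vesicle release genes it had 2.97 and the next cell 7.06. GABAergic cell 3 lay apart in the vascular and fibroblast score, at 3.37 with the other 5 GABAergic cells at 0, a score of the single gene Col1a1. In all, 64 groups of cells were looked at in this way, and chance flags about 1 in 20 groups.

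Rows without a gene symbol took no part in the comparison. Of 739 measured ones, 5 were higher and 10 lower in every pyramidal cell, and 4 of the 5 had a mean of at least 100 in pyramidal cells. The row at chr1:243107692-243109188 (rn6) averaged 4244 in pyramidal and 481 in GABAergic cells. The row at chr19:56338734-56338854 averaged 564 in pyramidal and 42.2 in GABAergic cells. The row at chr2:197752540-197759882 averaged 4465 in pyramidal and 1083 in GABAergic cells. The row at chr20:14094058-14095176 averaged 147 in pyramidal and 30.1 in GABAergic cells, with its lowest pyramidal cell at 65.1 beside a highest GABAergic cell at 62.4.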

How the results depend on the processing

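Leaving out each cell in turn gave a median over measured genes of -2.58 to -1.71, 16 to 44 genes higher and 127 to 208 lower without overlap, and medians of -10.83 to -9.00 for GABA synthesis and 1.20 to 3.10 for pyramidal transcription factors. Leaving out both pyramidal cells 3 and 4 gave 95 higher and 260 lower genes and an oligodendrocyte median of -0.97. Cells titled P alone gave 114 and 1080 genes, list medians of -11.69 and 0.19, and differences of -1.58 for RGD1305110 and -0.92 for Srcin1. Cells titled S alone gave 602 and 1804 genes, an all-gene median of 0, 5.34 for pyramidal transcription factors and 0.95 for calcium channels. Fewer cells make non-overlap easier, and genes at 0 in all the S cells have a difference of 0. Upper-quartile scaling left 3 higher and 184 lower genes. Over the 358 genes above 0 in all 11 cells, an alternative added after seeing the data, there were 4 and 8. The median of the 358 was -0.015 with the deposited scaling. Ratios of group means gave an all-gene median of -0.32. Pseudocounts of 10 and 0.1 gave -6.84 and -12.14 for GABA synthesis. The median over cells gave -11.86 for it and 0 for pyramidal transcription factors, which had 0.20 over 2 genes above 0 in at least 6 cells. Where no construction above shows it, the cause was not tested. The spread between cells was the larger SD of the 2 groups, and leaving out 1 cell cannot move a single gene's difference by that much. The tally that follows was thus in part fixed in advance and does not measure stability. Of 1187 values of single genes 1108 moved by less than the spread between cells and 2 turned sign. Of 667 list medians 619 did so and 25 turned sign, 13 of them for pyramidal signalling and spine genes and the others for astrocyte and oligodendrocyte markers, calcium channels, calcium sensors, corticosteroid-response genes, ribosomal proteins and scaffolds.

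No paired analysis was possible because cells of the 2 groups share no numbers that the labels tie to an animal, culture or day, and no test was made. Depth and detection limit genes at 0: 3 reads over the group are 0.0607 CPM in pyramidal cells and 0.0340 CPM in GABAergic cells.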

Other observations

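Among rows without a symbol, the row at chrX:106306795-106313853 (rn6) averaged 94.5 in pyramidal cells and 7602 in GABAergic cells, the row at chr6:126434246-126445568 averaged 428 in pyramidal cells and 6639 in GABAergic cells, and the row at chr1:261180007-261191367 was at 0 in all 5 pyramidal cells and averaged 1359 in the 6 GABAergic cells. Rows without a symbol held 14.0% to 49.9% of the reads in pyramidal cells and 11.7% to 22.4% in GABAergic cells. The windows of the 11 matched genes among the 15 higher ones held CRE letters in 1 gene, Chmp2a, and those of the 93 matched genes among the 120 lower ones held them in 5, namely Vgf, Peg3, Nrbf2, Slc45a1 and Tenm3, beside 185 of 5088 measured genes. The E-box letters were in windows of 0 of the 11 higher and 5 of the 93 lower genes, beside 452 of the 5088.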
